A study of Mus musculus with 16 samples.

Results

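Lipoxygenases and cyclooxygenases turn arachidonic acid, which phospholipases release from membranes, into eicosanoids, the short-range lipid signals of inflammation. Lipoxygenases make hydroperoxy acids, leukotrienes and lipoxins, and cyclooxygenases make the precursor of all prostaglandins, prostacyclin and thromboxane. In fat, macrophages, mast cells, mesothelium, vessel walls and adipocytes all carry parts of the pathway, and glucocorticoids acting on the glucocorticoid receptor (GR) are known to restrain it. The 10 genes described here are Alox15, Alox12, Alox5, Aloxe3, Alox5ap, Ltc4s, Lta4h, Ptgs1, Ptgs2 and Ptges. They are 10 of 19096 genes named on the array and are read by 14 probes. The set was chosen by the measured fall of Alox15 in white fat of GR knockout mice in these same arrays, with its pathway partners added by name. The white fat values of these 10 genes, knockout against control, are therefore given as a description, without a test, and so is every Alox15 value that involves white fat.

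Female mice gave RNA of white (WAT) and brown (BAT) adipose tissue, from controls and from GR knockouts, with 4 samples per depot and genotype. Controls were wild type per the series' design, and knockouts lacked GR in adipose tissue. The promoter behind the deletion, the white fat depot, age and strain are not given in the sources used here. Each sample was read on 1 one-colour array, with 4 arrays on each of 4 slides. A group always lay at the same array position, so the effects of position and group cannot be told apart. A level below is a probe's log2 signal relative to its array's 75th percentile, so 0 is the 75th percentile and a difference of 1 is a change by a factor of 2. Differences are log2 differences with their standard error (SE). Tests are limma tests over 25107 genes and unnamed probes, adjusted by the Benjamini-Hochberg method. A gene passed when its adjusted p was below 0.05.

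The arrays of WAT GR knockouts 1 and 2 were close to identical (the SD of their log2 difference was 1.04 times that of spot noise, and 2.07 times or more in the other 119 pairs) and were averaged, which leaves n = 3 in that group (samples 1-2, 3 and 4). The design speaks of biological replicates. Nr3c1, which encodes GR, differed by -0.66 ± 0.19 (SE) between knockout and control in WAT and by -1.03 ± 0.18 (SE) in BAT, lower without overlap in either depot. Whether its probe lies in the deleted part is not given. Ucp1, the uncoupling protein of brown fat, lay between 8.21 and 8.99 in BAT samples and between -5.23 and -1.10 in WAT samples. Adipoq, the adipocyte hormone adiponectin, was at 5.63 or higher in every sample. Markers of other cell types differed between the WAT samples. Marker lists are summarised as the median deviation of their genes from the mean over samples. The intestinal list stood at 6.38 and 5.10 in WAT controls 1 and 4 and at or below 0.54 in the other samples. The B cell list stood at 5.13 and 4.87 in WAT GR knockouts 1-2 and 3, at 3.74 and 3.06 in WAT controls 3 and 4, and at or below -0.05 elsewhere. In WAT GR knockouts 1-2 and 3 the adipocyte list stood at -2.21 and -1.24, against 0.77 in knockout 4. BAT GR knockouts 1 and 2 differed from the BAT controls by an SD of 0.622 to 0.760 over bright probes, and BAT GR knockouts 3 and 4 by 0.311 to 0.453. The 75th percentile of their arrays was 298 and 320, against 486 to 562 on the other BAT arrays and 298 to 1035 over all. In whole tissue, fewer cells of a type and less RNA per cell cannot be told apart.

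**Figure D1:**
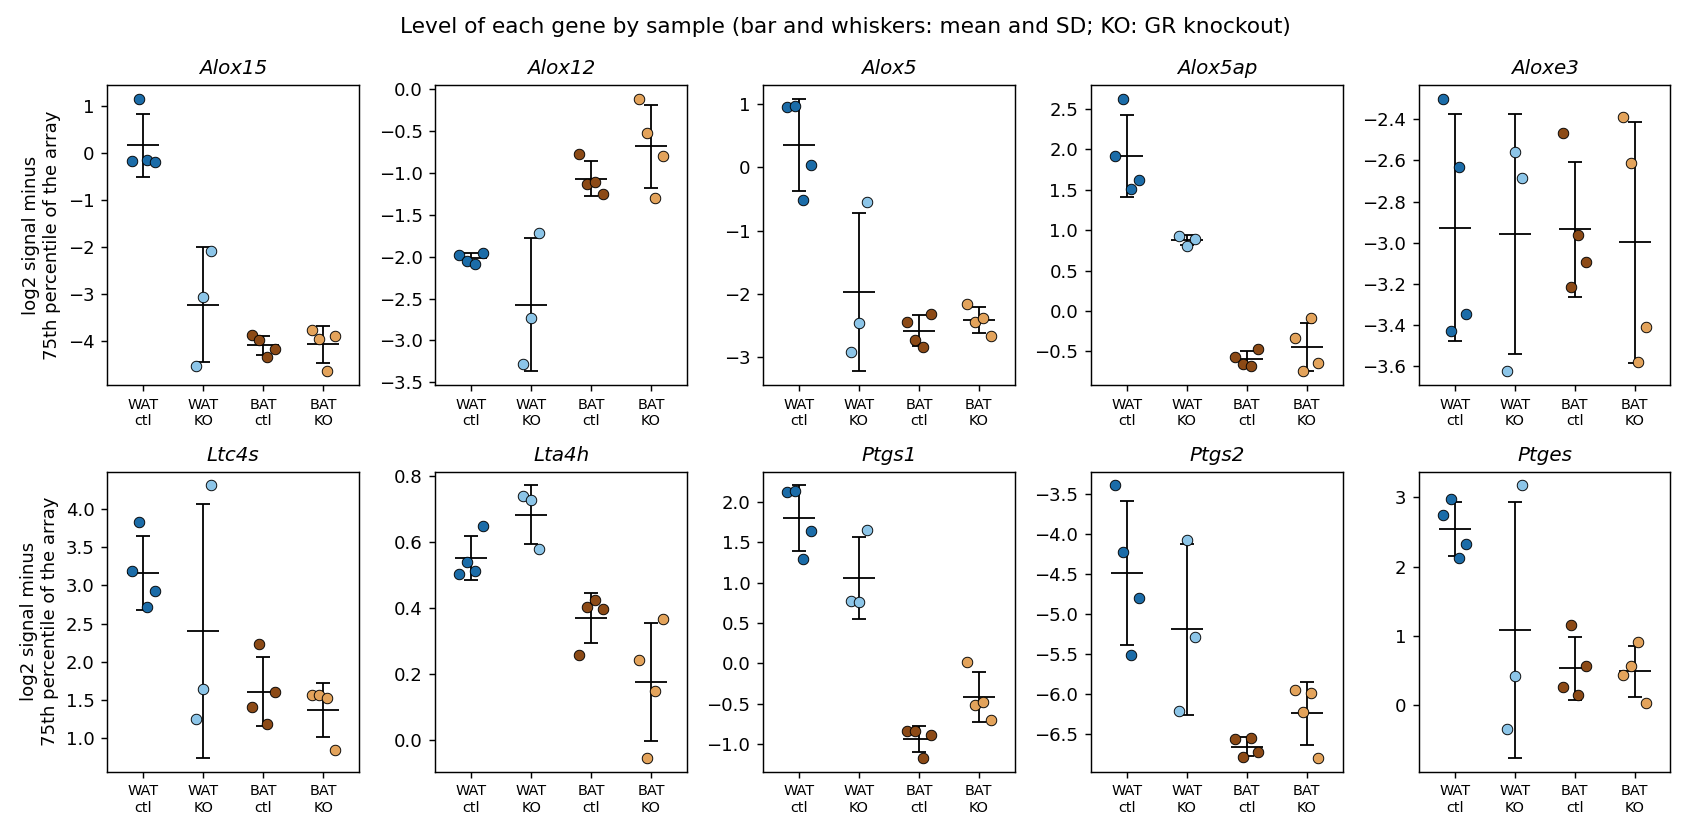
Level of each gene (log2 signal relative to the array's 75th percentile, y axis, with its own range in each panel) in the samples of the 4 groups (x axis). Points are samples, and the bar and whiskers are mean and SD; Alox15 separates the WAT controls, at -0.19 or higher, from all other samples, at -2.09 or lower.

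Alox15 encodes the leukocyte-type lipoxygenase of resident macrophages and eosinophils. Its gene spans chr11:70344147-70390538 in GRCm38.p6, as RefSeq's annotation gives it. WAT controls 1 to 4 had levels of -0.16, 1.16, -0.16 and -0.19, and WAT GR knockouts 1-2, 3 and 4 had -4.53, -3.06 and -2.09. In BAT it was -3.89, -3.99, -4.34 and -4.17 in controls and -3.78, -3.95, -4.65 and -3.90 in GR knockouts. The WAT controls were high and the other 3 groups low. The WAT groups did not overlap, nor did the controls of the depots, while the WAT GR knockouts overlapped BAT through sample 1-2. The WAT difference, which is the value the set was chosen on, was -3.39 ± 0.48 (SE), a level 10.5-fold lower in the knockout. Within slides it ranged from -5.57 to -1.94, and with another background correction (normexp) it was -1.91. Between BAT and WAT of controls Alox15 differed by -4.26 (19.1-fold lower in BAT; -2.61 with normexp), and between the depots of knockouts its difference was -0.84 ± 0.48 (SE). Only the BAT genotype comparison is independent of the choice, and there Alox15 did not pass (difference 0.02 ± 0.44 (SE), 95% interval -0.92 to 0.97, adjusted p = 0.993).

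The genes whose levels ran most like Alox15 over the 15 samples were Serpinb2 (Pearson r = 0.976), Prg4 (0.972), Kcnab1 (0.967), Saa3 (0.965), Ptgis (0.964) and Ppl (0.962). Serpinb2 encodes a macrophage protease inhibitor, Prg4 a lubricating proteoglycan and Ptgis prostacyclin synthase. Over the 7 WAT samples alone they were Cpa3 (0.994), Serpinb10 (0.994), Saa3 (0.990), Serpinb2 (0.987), Olfr1495 (0.982) and Cma1 (0.982). Cpa3 and Cma1 encode the carboxypeptidase and the chymase of mast cell granules, and Saa3 an acute-phase protein. These coefficients describe samples that share their depot and genotype groups, so they carry no p. The WAT difference of knockout and control, given with no test, was -3.21 in Prg4, -3.30 in Cma1 and -3.02 in Cpa3, which was well above background on 3 of 4 WAT GR knockout arrays. Serpinb2 was lower in the knockout without overlap and was well above background on 2 of 4 of those arrays.

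Some cell marker lists were lower in the WAT GR knockouts, as Alox15 was, and others were split or higher. The mast cell list was lower in 7 of 7 measured genes (median difference -1.09), with levels of -0.01 to 1.12 in controls and -1.83 to 0.09 in knockouts. The log2 of its summed signal ran from 1.83 to 2.80 and from -0.22 to 1.58. The list holds Cma1 and Cpa3, named above for their likeness to Alox15, so it is not independent. Those genes and Mcpt4 did not overlap, while Fcer1a (-0.29), Gata2 (-0.37), Tpsb2 (-0.67) and Hdc (-1.09) did. The peritoneal macrophage list was lower in 12 of 15 genes (median difference -0.85) and did not overlap, at 1.16 to 2.09 in controls and 0.13 to 0.50 in knockouts. That list holds Prg4 and F10, which earlier results had shown to fall, so it is not independent. Its defining gene Gata6 differed by -0.85 and overlapped, and Timd4 by 0.15. The log2 of that list's summed signal ran from 4.68 to 5.37 in controls and from 4.79 to 5.59 in knockouts. The general macrophage list was lower in 12 of 13 genes (median difference -0.35), with Adgre1 at -1.50 and Csf1r at 0.13. Its level did not overlap, at 0.72 to 1.74 in controls and 0.29 to 0.46 in knockouts. The log2 of its summed signal did, at 5.21 to 6.14 and 4.67 to 5.53. The eosinophil list was split, lower in 3 of 6 genes, with Prg2 at 1.32. The mesothelial list was lower in 9 of 9 genes, and its level overlapped, at 2.55 to 4.00 in controls and -1.16 to 2.64 in knockouts. The log2 of its summed signal did not overlap, at 4.42 to 6.30 in controls and 0.78 to 4.36 in knockouts. The adipocyte list was lower in 13 of 13 genes, while the B cell and T cell lists were higher in 9 of 9 genes each. In WAT GR knockout 4, where Alox15 was at -2.09, the mast cell and mesothelial lists stood at 0.09 and 2.64, within the range of the controls. The adipocyte list stood at 0.77, above that range, and the macrophage and peritoneal macrophage lists, at 0.29 and 0.50, below it. The part of these cells in the Alox15 difference was not tested.

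Alox5 encodes the lipoxygenase that starts leukotriene synthesis, and Alox5ap the membrane protein that hands it arachidonic acid. Alox5 lies at chr6:116410071-116461178 and Alox5ap at chr5:149265004-149288153. Alox5 stood at 0.95, 0.96, -0.51 and 0.03 in the WAT controls and at -2.91, -2.46 and -0.55 in WAT GR knockouts 1-2, 3 and 4. In BAT it was -2.44, -2.73, -2.84 and -2.31 in controls and -2.16, -2.45, -2.38 and -2.67 in GR knockouts. WAT controls were highest, and WAT GR knockout 4 lay just below the lowest of them (control 3) and well above both BAT groups. The WAT difference of knockout and control was -2.33 ± 0.48 (SE), with -0.03 on the slide that held knockout 4 and control 3 and -3.79 to -3.03 on the other slides. Alox5 is read by 3 probes, and their WAT differences were -2.33, -2.57 and -1.36.

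Alox5ap stood at 1.91, 2.63, 1.51 and 1.62 in WAT controls and at 0.93, 0.81 and 0.89 in WAT GR knockouts 1-2, 3 and 4. In BAT it stood at -0.57, -0.65, -0.68 and -0.47 in controls and at -0.33, -0.74, -0.08 and -0.64 in GR knockouts. Its 3 knockout samples lay close together, all below the controls. The macrophage list stood at 0.46, 0.34 and 0.29 in these samples and at 0.72 to 1.74 in the WAT controls. The adipocyte and B cell lists differed widely between the 3. The part of these cells in the Alox5ap values was not tested. The WAT difference was -1.04 ± 0.25 (SE), without a test. The genes most like Alox5ap over the 15 samples were Fcgr3 (r = 0.990), Serping1 (0.983) and Trem2 (0.981), and those most like Alox5 were Nbl1 (0.994), Ptgis (0.993) and Abat (0.989). Fcgr3 and Trem2 encode receptors of macrophages and related myeloid cells.

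Ltc4s encodes leukotriene C4 synthase and Lta4h the hydrolase that makes leukotriene B4. Ltc4s lies at chr11:50236461-50238532 and Lta4h at chr10:93453396-93484896. Ltc4s stood at 3.18, 3.82, 2.72 and 2.92 in WAT controls and at 1.25, 1.65 and 4.30 in WAT GR knockouts 1-2, 3 and 4. In BAT it stood at 1.41, 2.24, 1.19 and 1.60 in controls and at 1.57, 1.56, 1.52 and 0.85 in GR knockouts. WAT GR knockout 4 was thus the highest of all samples, and knockouts 1-2 and 3 were below every WAT control. Lta4h varied little. It stood at 0.50 to 0.65 in WAT controls, 0.58 to 0.74 in WAT GR knockouts, 0.26 to 0.42 in BAT controls and -0.06 to 0.37 in BAT GR knockouts. The WAT difference of knockout and control was -0.76 ± 0.57 (SE) in Ltc4s and 0.13 ± 0.15 (SE) in Lta4h, and the sign of the latter turned (-0.0076) when arrays were scaled by their median.

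Ptgs1 and Ptgs2 encode the constitutive and the inducible cyclooxygenase, and Ptges the inducible prostaglandin E synthase that acts after them. Ptgs1 lies at chr2:36216742-36258593, Ptgs2 at chr1:150100031-150108234 and Ptges at chr2:30889471-30931020. Ptgs1 stood at 2.12, 2.13, 1.29 and 1.64 in WAT controls and at 0.78, 0.76 and 1.65 in WAT GR knockouts 1-2, 3 and 4. In BAT it stood at -0.83, -0.83, -1.17 and -0.89 in controls and at 0.02, -0.51, -0.48 and -0.71 in GR knockouts. Every WAT sample was above every BAT sample, and in BAT every GR knockout was above every control. Ptges stood at 2.75, 2.98, 2.12 and 2.32 in WAT controls and at -0.34, 0.42 and 3.17 in WAT GR knockouts, and in BAT at 0.26, 1.16, 0.15 and 0.57 in controls and 0.44, 0.56, 0.92 and 0.03 in GR knockouts. As in Ltc4s, WAT GR knockout 4 was the highest sample and knockouts 1-2 and 3 were below the WAT controls. Ptges was also among the 3 genes most like Ltc4s over the 15 samples (r = 0.970).

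Ptgs2 was dim. Its probe, spotted 10 times, was well above background on 3 of 4 WAT control arrays, 1 of 4 WAT GR knockout arrays and 0 BAT arrays. WAT controls had levels of -3.39, -4.23, -5.52 and -4.80, WAT GR knockouts had -6.21, -4.08 and -5.28, and BAT samples lay between -6.80 and -5.95. The second Ptgs2 probe was well above background on 3 WAT control arrays and 1 BAT GR knockout array. The WAT difference of knockout and control was -0.73 ± 0.27 (SE) in Ptgs1 and -1.46 ± 0.61 (SE) in Ptges. Both genes overlapped between the WAT groups, as did Ptgs2, for which no difference is given because of its dim knockout arrays.

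Alox12, the platelet-type lipoxygenase, and Aloxe3, an epidermal enzyme that converts hydroperoxides for the skin barrier, are the remaining lipoxygenases. Alox12 lies at chr11:70241457-70255380 and Aloxe3 at chr11:69125417-69149115. Alox12 stood at -1.97, -2.05, -2.09 and -1.96 in WAT controls and at -3.28, -2.73 and -1.71 in WAT GR knockouts 1-2, 3 and 4. In BAT it stood at -0.77, -1.14, -1.11 and -1.25 in controls and at -0.11, -0.52, -1.30 and -0.80 in GR knockouts, above every WAT sample at this probe. The second Alox12 probe overlapped between depots, with WAT control 1 at -2.36 and BAT controls at -2.82 to -2.10. BAT GR knockout 3 was at -2.815 there, and WAT GR knockouts 3 and 4 at -2.72 and -2.75. Aloxe3 lay between -3.63 and -2.30 over all samples, with all 4 groups overlapping. The WAT difference of knockout and control was -0.56 ± 0.33 (SE) in Alox12 and -0.03 ± 0.38 (SE) in Aloxe3. Alox12 ran most like Car4 (r = 0.969), Stom (0.968) and Colgalt2 (0.968), of which Car4 encodes a carbonic anhydrase of capillary endothelium. The genes most like Ptgs1 were Axl (0.994), Gata6 (0.992) and Lgals3 (0.992), and Gata6 is the defining factor of peritoneal macrophages. Those most like Ptges were Aldh3b2 (0.984), Morc4 (0.975) and Gstm2 (0.975).

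In the WAT comparison as a whole, 3 of 10 genes were lower without overlap (Alox15, Alox5 and Alox5ap), which 1.23% of all features were. Of all features 0.0199% passed as higher and 0.0398% as lower. Nothing is read from these counts, since this comparison chose the set. Leaving out WAT GR knockout 4 raised the 3 to 7, adding Alox12, Ltc4s, Ptgs1 and Ptges. It also raised the share of all features lower without overlap to 22.0%, and the number of all features that passed from 15 to 9235. The 2 knockout samples then left were those with the high B cell and low adipocyte lists. The 7 were lower in both samples, and Alox15 and Alox5ap lay below every control in all 3. Alox5 of knockout 4 differed from control 3 by only -0.03.

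**Figure D2:**
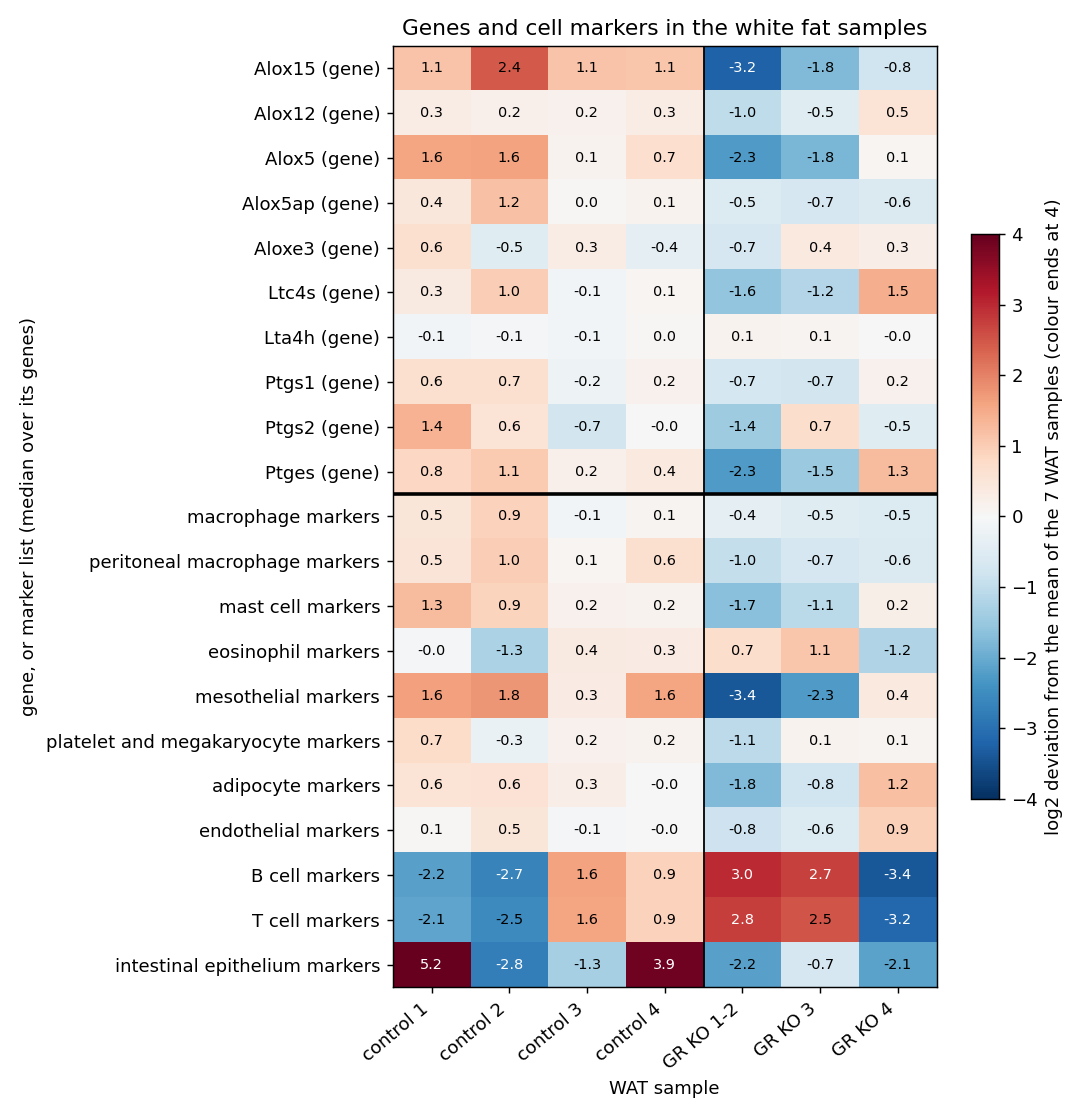
Deviation of each gene, and of each marker list (median over its genes), from its mean over the 7 WAT samples on the log2 scale (colour and printed value; rows are genes and lists, columns are samples). Alox15 and Alox5ap are below 0 in all 3 knockout samples, while Ltc4s, Ptges and the adipocyte markers are low in knockouts 1-2 and 3 and high in knockout 4.

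The BAT genotype comparison asks whether the genes differ when GR is deleted in brown fat. None of the 10 passed, and 0 had an unadjusted p below 0.05, against 13.1% of all features at that level. Of all features 0.0159% passed. Ptgs1 was the only gene without overlap, higher in the GR knockout by 0.51 ± 0.25 (SE), 95% interval -0.03 to 1.06, adjusted p = 0.406. Being higher without overlap was shared by 9.35% of all features and being lower by 8.62%. The difference was positive on all 4 slides (0.18 to 0.85). Alox12 differed by 0.39 ± 0.30 (SE, adjusted p = 0.648), Alox5 by 0.17 ± 0.45 (SE, adjusted p = 0.929) and Alox5ap by 0.14 ± 0.23 (SE, adjusted p = 0.867). Lta4h differed by -0.19 ± 0.14 (SE, adjusted p = 0.601), Ltc4s by -0.24 ± 0.53 (SE, adjusted p = 0.910) and Ptges by -0.05 ± 0.56 (SE, adjusted p = 0.988). Aloxe3 differed by -0.06 ± 0.35 (SE, adjusted p = 0.970). Ptgs2 was not well above background in either group. The 95% intervals were widest in Ltc4s (-1.37 to 0.89) and Ptges (-1.26 to 1.17). Their width rests on a spread pooled over all 4 groups, and the SD in WAT GR knockouts was 1.66 and 1.85. In BAT controls and GR knockouts the SD was 0.45 and 0.35 in Ltc4s and 0.45 and 0.36 in Ptges. The median difference of all features was 0.10. Beside these values, skeletal muscle markers were higher in BAT GR knockouts in 12 of 12 genes (median difference 2.04), at 2.56 to 5.30 against -1.06 to 3.09 in controls. The platelet list was higher there in 9 of 9 genes (median difference 0.41) and the endothelial list in 8 of 9 (0.37). The part of these cells in the values was not tested. Without BAT GR knockouts 1 and 2, none of the 10 passed either, but the number of all features that passed was then 0, so nothing is read from this.

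Brown and white fat of controls differed in most of the genes. Of the 9 genes tested, 6 were lower in BAT and 1 was higher, where 14.3% of all features passed as lower and 19.1% as higher. Ptgs2 is among the 6, through a call that the filter favoured. Alox5ap differed by -2.51 (SE 0.23, 5.68-fold lower in BAT, adjusted p = 3.76e-06) and Ptgs1 by -2.73 (SE 0.25, 6.62-fold, adjusted p = 4.19e-06). Alox5 differed by -2.94 (SE 0.45, 7.68-fold, adjusted p = 0.000209), with differences of -2.94, -3.18 and -2.49 at its 3 probes. Ptges differed by -2.01 (SE 0.56, 4.02-fold, adjusted p = 0.0139) and Ltc4s by -1.55 (SE 0.53, 2.92-fold, adjusted p = 0.0357). Ptgs2 passed with adjusted p = 0.00219, but its probe was kept only through the WAT control arrays, where it was high. Its call is therefore not independent of the filter. Ptgs2 was at least 1.38-fold lower in BAT, where it was not well above background. That bound sets the mean of the WAT controls against the lowest signal well above background on the BAT arrays. All 6 were lower without overlap, as was Lta4h, which did not pass. Of all features 18.5% were lower without overlap and 24.8% higher.

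Alox12 was higher in BAT by 0.95 ± 0.30 (SE, 1.93-fold, adjusted p = 0.0275), and its second probe differed by 0.53. Aloxe3 (-0.01 ± 0.35 (SE), adjusted p = 0.990) and Lta4h (-0.18 ± 0.14 (SE), adjusted p = 0.355) did not pass. The median difference of all features was 0.11, so relative to it the 6 lower genes differed slightly more (Ptgs1 by -2.84). The call of Alox5, Alox5ap and Ptgs1 held under all 21 settings, the reported one included. The other 4 calls did not. That of Ptgs2 was lost with normexp (adjusted p = 0.501, and 0.000129 to 0.501 over all settings). Alox12 no longer passed without any one of WAT controls 2, 3 and 4 or BAT controls 1, 2 and 3 (adjusted p 0.0516 to 0.0787, and 0.000726 to 0.238 over all settings). Ltc4s no longer passed without any one of WAT controls 1, 2 and 4 or BAT controls 1, 3 and 4 (adjusted p 0.0582 to 0.0930, and 0.00338 to 0.113 over all settings). Without both WAT controls 1 and 4, whose intestinal list was high, 4 of the 7 still passed, while the number of all features that passed fell from 8381 to 5272. Ptges was then at -2.01 (adjusted p = 0.0755), Ltc4s at -1.66 (0.113) and Alox12 at 1.0 (0.101).

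**Figure D3:**
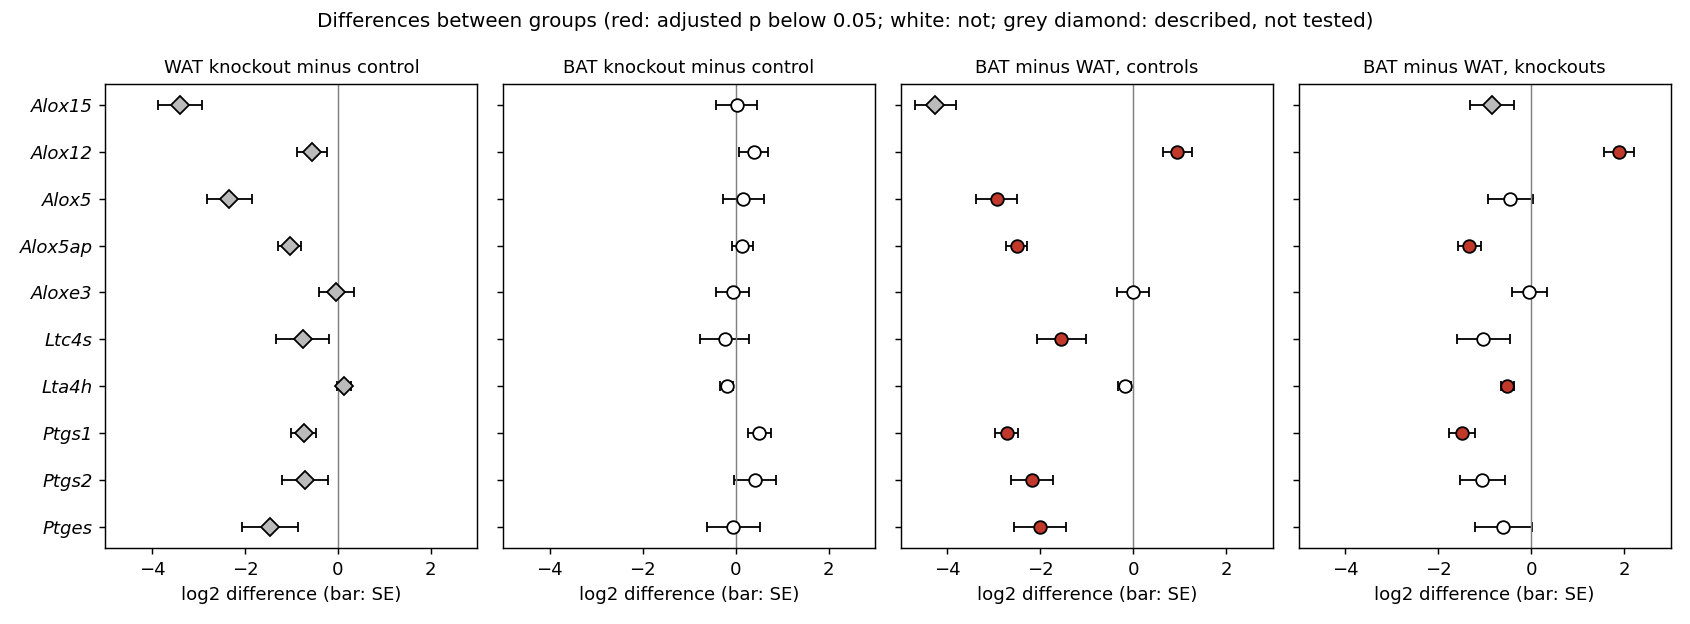
Log2 difference (x axis, bars are SE) of each gene (y axis) in the 4 comparisons; red marks adjusted p below 0.05 and grey diamonds mark values given without a test. A total of 6 genes are red and left of 0 between the depots of controls, none is red between BAT genotypes, and Ptgs2 in BAT is not well above background. Ptgs2 is among the 6, and its probe was kept only through the WAT controls.

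Between the depots of GR knockouts 3 of 9 genes were lower in BAT and 1 was higher, where 13.9% of all features passed as lower and 16.7% as higher. Alox5ap differed by -1.32 ± 0.25 (SE, 2.5-fold, adjusted p = 0.00147) and Ptgs1 by -1.48 ± 0.27 (SE, 2.79-fold, adjusted p = 0.00134). Lta4h differed by -0.51 ± 0.15 (SE, 1.42-fold, adjusted p = 0.0199), and Alox12 by 1.89 ± 0.33 (SE, 3.71-fold, adjusted p = 0.000862). The second Alox12 probe differed by 1.03, and with normexp Alox12 was at 1.05 and no longer passed (adjusted p = 0.0548, and 1.99e-05 to 0.0548 over all settings). At the probes used, these 4 genes did not overlap between the depots, where 10.7% of all features were lower without overlap and 14.8% higher. The second Alox12 probe did overlap. Alox5 (-0.44 ± 0.48 (SE), adjusted p = 0.552), Ptges (-0.60 ± 0.61 (SE), 0.522), Ltc4s (-1.03 ± 0.57 (SE), 0.20) and Aloxe3 (-0.04 ± 0.38 (SE), 0.954) did not pass. Ptgs2, dim in both groups, did not pass (adjusted p = 0.125) and is given no fold, but passed as lower in BAT without WAT GR knockout 1-2 (0.0408; 0.0408 to 1 over all settings). Without WAT GR knockout 4 the difference of Alox5 turned to 0.27 and that of Ptges to 0.45, neither of which passed. The call of Lta4h was lost without any one of WAT GR knockouts 1-2 and 3 and BAT GR knockout 2 (adjusted p 0.0596 to 0.0760, and 0.00597 to 0.311 over all settings). The difference between the depot contrasts of controls and of knockouts was not tested, since it holds the WAT genotype comparison that chose the set.

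Markers of cells that carry the pathway differed between depots as well, in both directions. In controls the macrophage list was lower in BAT in 13 of 13 genes (median difference -2.14), the mesothelial list in 9 of 9 (-6.47) and the peritoneal macrophage list in 13 of 15 (-2.88). Among their defining genes, Timd4 and Wt1 were well above background on all WAT control arrays and on 0 BAT control arrays, while Adgre1 and Csf1r were above it on every array of both. In GR knockouts the macrophage list was lower in 12 of 13 genes (median difference -0.80) and the mesothelial list in 8 of 9 (-2.73). The log2 of the summed macrophage signal ran from 5.21 to 6.14 in WAT controls, 4.67 to 5.53 in WAT GR knockouts, 3.36 to 3.68 in BAT controls and 3.46 to 3.88 in BAT GR knockouts. The platelet list was lower in BAT controls in 9 of 9 genes (median difference -0.73), and the endothelial list was higher in 5 of 9. The mast cell list was lower in BAT controls in 4 of 7 genes (-0.55), and the adipocyte list was higher in 9 of 13 (0.09). In GR knockouts the platelet list was higher in BAT in 5 of 9 genes (median difference 0.09) and the endothelial list in 8 of 9 (1.21). So were the mast cell list in 7 of 7 genes (0.91) and the adipocyte list in 11 of 13 (1.15). The part of these cells in the depot differences was not tested.

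Promoter windows of 300 bases (250 before and 50 after the start) were found for 7 of the 10 genes in RefSeq's GRCm38.p6 table: Alox12, Alox5, Ltc4s, Lta4h, Ptgs1, Ptgs2 and Ptges. Alox15, Alox5ap and Aloxe3 had no entry. The windows of Alox5, Ptgs1 and Ptges, all lower in BAT controls, are shown beside that of Alox12, the gene that was higher. Their places are chr6:116461129-116461428 (minus strand), chr2:36230176-36230475 (plus), chr2:30903248-30903547 (minus) and chr11:70255321-70255620 (minus). The windows of Ptgs1 and Ptges lie inside the gene spans given above, at a start other than the outermost. Their matches hold for that start only. Capitals mark the GR half-site AGAACA (which reads TGTTCT when on the other strand) and the Sp1 box GGGCGG, both searched on both strands.
Alox5: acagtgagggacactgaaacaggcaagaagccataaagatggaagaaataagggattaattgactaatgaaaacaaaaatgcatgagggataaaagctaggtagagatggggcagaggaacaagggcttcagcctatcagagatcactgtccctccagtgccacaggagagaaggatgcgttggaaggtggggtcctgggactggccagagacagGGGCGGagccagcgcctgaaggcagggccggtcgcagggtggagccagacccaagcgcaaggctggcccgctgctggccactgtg
Ptgs1: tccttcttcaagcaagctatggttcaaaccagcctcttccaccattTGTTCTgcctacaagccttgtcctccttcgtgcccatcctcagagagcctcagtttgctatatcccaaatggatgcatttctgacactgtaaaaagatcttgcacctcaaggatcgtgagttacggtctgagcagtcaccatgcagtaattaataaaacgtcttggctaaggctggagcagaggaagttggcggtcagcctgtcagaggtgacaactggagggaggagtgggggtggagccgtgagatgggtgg
Ptges: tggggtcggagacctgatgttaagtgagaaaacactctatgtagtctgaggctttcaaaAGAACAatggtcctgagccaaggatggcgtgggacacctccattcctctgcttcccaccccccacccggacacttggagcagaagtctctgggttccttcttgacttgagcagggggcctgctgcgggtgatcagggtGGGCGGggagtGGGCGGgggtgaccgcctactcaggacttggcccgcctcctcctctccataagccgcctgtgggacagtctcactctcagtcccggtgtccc
Alox12: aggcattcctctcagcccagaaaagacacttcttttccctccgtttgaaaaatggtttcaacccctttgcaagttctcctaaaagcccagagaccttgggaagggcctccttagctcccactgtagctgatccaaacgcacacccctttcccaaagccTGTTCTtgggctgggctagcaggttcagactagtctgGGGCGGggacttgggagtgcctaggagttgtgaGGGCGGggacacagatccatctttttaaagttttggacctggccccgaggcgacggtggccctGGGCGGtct
The half-site was in the windows of Alox12, Ptgs1 and Ptges, 3 of 7, and in 19.0% of all 32851 windows. It thus occurred both in the gene higher in BAT and in genes lower there, and Alox5 had none. The Sp1 box was in 4 of 7 windows (Alox12, Alox5, Ptgs2 and Ptges) and in 35.7% of all windows, with 3 copies in Alox12 and 2 in Ptges. The full GR palindrome, a half-site and its reverse complement around a gap of 3 bases, was in 0 of 7 windows and 0.00913% of all windows. TATAAA was in 0 of 7 windows (13.6% of all), and TGACG, the core of the cyclic AMP element, in Ptgs2 only (20.8% of all). These are matches of letters in a short window and not measured binding.

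Of 64 other genes of the pathway, 54 were measured. In WAT, where these genes were tested, 0 of 54 passed and 13 had an unadjusted p below 0.05, against 17.9% of all features. The median difference was -0.28, against 0.24 over all features. Smallest in p were Ptgis (-2.54 ± 0.49 (SE), adjusted p = 0.105), whose levels ran so like those of Alox15 and Alox5 that its p is not independent of the choice of genes, Ptgr1, which inactivates leukotriene B4 and prostaglandins (-1.07 ± 0.30 (SE), 0.197), and Dpep1, which converts leukotriene D4 (-2.18 ± 0.66 (SE), 0.216). Ptgis did not overlap: it stood at 1.20, 1.42, -0.08 and 0.39 in WAT controls and at -3.01, -2.03 and -0.38 in WAT GR knockouts. Leaving out WAT GR knockout 4 brought the number that passed from 0 to 26, and leaving out WAT control 3 brought it to 1. The number of all features that passed rose from 15 to 9235 and to 52 in these 2 settings. In BAT, 0 of 54 passed and 4 had an unadjusted p below 0.05, against 13.1% of all features, with a median of 0.06. Smallest in p were Ptgds, the lipocalin-type prostaglandin D synthase (1.43 ± 0.35 (SE), adjusted p = 0.182), Ggt5, which makes leukotriene D4 (0.75 ± 0.24 (SE), 0.230), and Pla2g7, which breaks down platelet-activating factor (-1.09 ± 0.37 (SE), 0.248). Ptgds stood at 0.16, -0.70, 0.16 and -0.17 in BAT controls and at 1.99, 1.51, 0.59 and 1.06 in BAT GR knockouts, and Pla2g7 at 2.11 to 2.18 and 0.21 to 1.75, both without overlap.

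Between the depots of controls, 21 of the 54 genes were lower in BAT and 5 higher, with a median difference of -0.57 against 0.11 over all features. Of all features 14.3% passed as lower in this comparison and 19.1% as higher. By role, the lower ones were 3 of 11 phospholipases, 3 of 9 prostanoid synthases, 4 of 9 leukotriene and lipoxin enzymes, 3 of 7 genes of prostaglandin breakdown and transport, 4 of 8 prostanoid receptors, 3 of 6 leukotriene and lipoxin receptors and Anxa1, the glucocorticoid-regulated annexin A1 (-3.11). None of 3 other lipoxygenases passed. Pla2g4a, the cytosolic phospholipase that supplies arachidonic acid, differed by -3.65 (SE 0.35, adjusted p = 4.78e-06). The prostaglandin transporter Slco2a1 differed by -3.06 and the prostaglandin dehydrogenase Hpgd by -2.16. Pla2g5, a secreted phospholipase, passed as lower in BAT, where it was well above background on 1 of 4 control arrays. Its probe was kept only through WAT arrays, so its call is not independent of the filter. The count of 21 includes it. Higher in BAT were Pla2g7 (3.03) and Ptgr2, a reductase of prostaglandin metabolites (2.54). Among prostanoid synthases Ptges2 and Ptgds were higher, so that list held changes in both directions. Between the depots of knockouts, 15 were lower and 8 higher (median -0.35, against -0.09 over all features). Of all features 13.9% passed as lower there and 16.7% as higher. The smallest adjusted p values there were those of Ptgds (3.81), Ptgr2 (2.80), Slco2a1 (-2.5), Pla2g4a (-2.94), Cysltr2 (at least 1.53-fold lower in BAT, where it was not well above background) and Ptges2 (2.98), given as log2 differences. The 15 include Cysltr2 and Pla2g5. Both were dim in BAT, so their calls are not independent of the filter on dim probes. Fitting the knockout groups alone reduced the 23 genes to 14, and the number of all features that passed from 7683 to 2990.

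**Figure D4:**
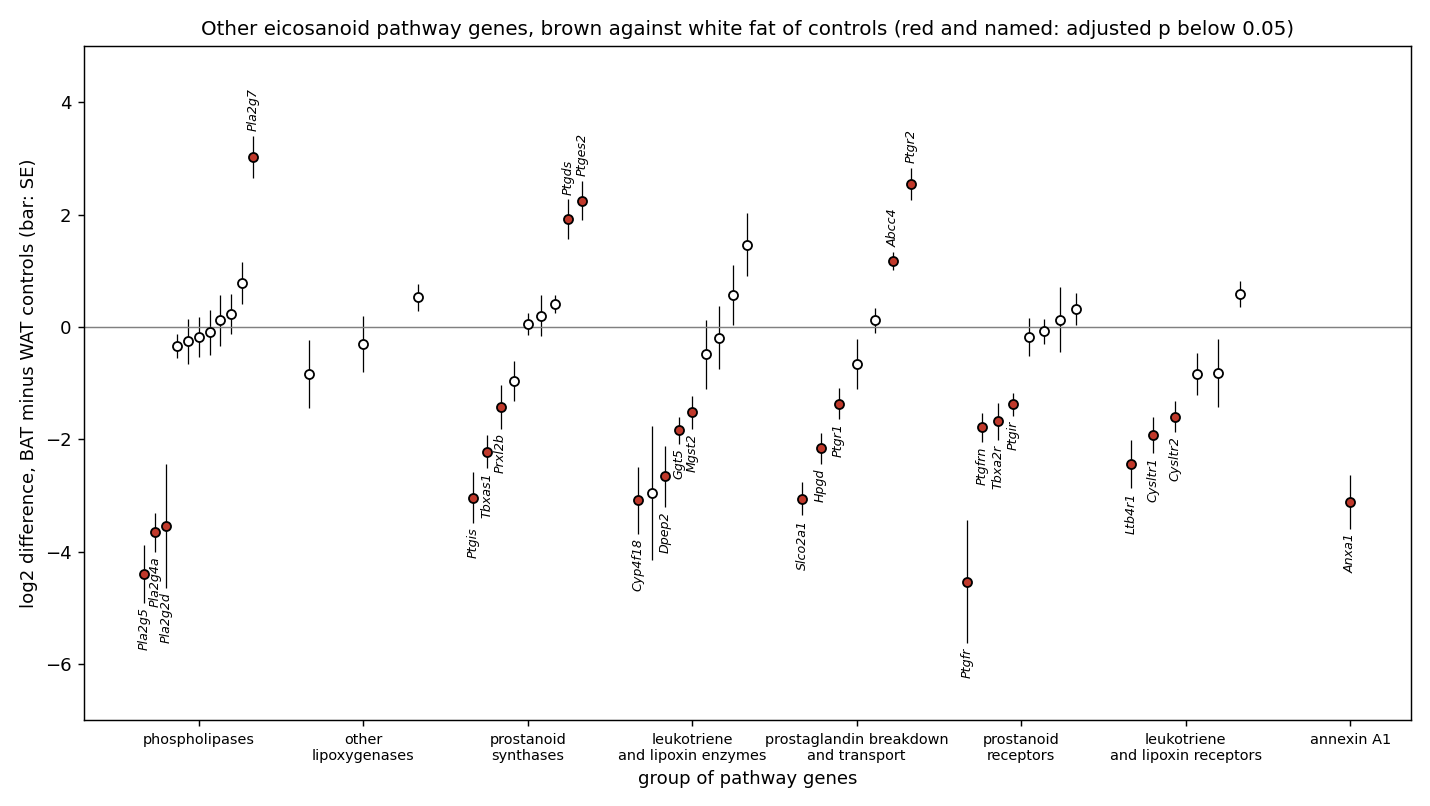
Log2 difference of BAT and WAT controls (y axis, bars are SE) for 54 other pathway genes grouped by role (x axis); red, named points have adjusted p below 0.05. Red points lie below 0 in 21 genes and above 0 in 5, where 14.3% and 19.1% of all features passed. The 21 include Pla2g5, whose probe was kept only through WAT arrays. Receptors and leukotriene enzymes have red points below 0 only.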

How the data were processed

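The deposited scanner files hold the authors' Agilent Feature Extraction output (version 12.0.0.7, per the file headers), 1 Cy3 array for each of 16 samples. Per the file headers, that software subtracted background and spatial trend within each array to give the processed signal, an intensity left unscaled across arrays. Deposited flags are of another type, 0 or 1 per spot. The deposited series values are intensity values too and equalled the mean processed signal of all 41174 probes within a relative tolerance of 1e-04. Per the labels, a column kit yielded the total RNA.

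Non-uniform and population-outlier spots were left out, repeated spots averaged and log2 levels set relative to the array's 75th percentile. A probe was kept when well above background on at least 3 of 4 arrays of at least 1 group, and 66.7% to 83.6% of probes were well above it on an array. Probes were named through RefSeq accessions (GRCm38.p6; the array design is annotated on an older build), which named 28223 of them, and the brightest probe stood for a gene. This gave 16677 genes and 8430 unnamed probes. A model with 1 mean per group over 15 samples (11 residual degrees of freedom) was used in limma 3.58.1, with lmFit and eBayes and two-sided tests, in R 4.3.3 with the data.table package (version 1.17.8), and checked on simulated data. P-values rest on the spread between samples of a group, pooled over all 4 groups, and the number of samples limits the precision.

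The members and lists were chosen with earlier results of these data known. Named genes were all members, per comparison up to 6 other pathway genes by smallest adjusted p (the 3 smallest in p where fewer than 3 passed), the genes most correlated with a member, Nr3c1 and defining markers. Ucp1, Adipoq, Ptges2 in controls, Ptgds in controls and Anxa1 were named after their values were seen. A marker list's level is the median deviation of its genes. A bound for a dim group uses the lowest signal well above background on its arrays. Alternatives were quantile normalization, the median as scale, other filters, probe averages, the value table, slide or replicate blocks, separate fits, leave-one-out and normexp (offset 50). The latter used median signal and median background instead of the planned mean signal, which was not used here. Leaving out WAT controls 1 and 4, or BAT GR knockouts 1 and 2, was chosen after seeing the data.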

Additional observations from a re-analysis of the deposited data

Results flagged for a closer look

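Among 30 groups of 4 samples examined for the 10 genes, 4 held a sample far from the others by Dixon's test; chance marks about 1 in 20 groups. Alox15 in WAT control 2 stood at 1.16, where the nearest other control was at -0.16. Ltc4s in BAT GR knockout 4 stood at 0.85, with the nearest at 1.52. Lta4h in BAT control 1 stood at 0.26, with the nearest at 0.39. Ptgs1 in BAT control 3 stood at -1.17, with the nearest at -0.89.

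With the reported scaling, Lta4h moved in opposite directions with genotype in the depots. On all 4 slides the knockout was above the control in WAT and below it in BAT. The WAT slides are not all independent, since the arrays of WAT GR knockouts 1 and 2 were close to identical. Relative to the median of all features, Lta4h was lower in the knockout in both depots (-0.11 in WAT and -0.29 in BAT). The BAT difference minus the WAT difference was -0.32. This difference between depots was not tested, and scaling by the array median turned the sign of the WAT difference.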

How the results depend on the processing

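Of the genes' differences recomputed under the alternatives, 710 kept their direction and side of the threshold, 29 lost their call, 1 gained one, 34 changed sign and 2 without a test moved. The cause of these changes was not tested. With normexp, 4 instead of 7 genes passed between depots of controls and 2 instead of 4 between depots of knockouts. The number of all features that passed also fell, from 8381 to 5825 and from 7683 to 3630. The difference with normexp was 0.20 for Aloxe3 in BAT and 0.047 for Ptgs2 between depots of knockouts. With quantile normalization Alox15 in BAT was at -0.12, and Aloxe3 at 0.12 and 0.14 between depots of controls and knockouts. Scaled by the median, Alox15 in BAT was at -0.12, Aloxe3 at 0.14 and 0.11 between depots and Lta4h in WAT at -0.0076. With that scaling 1 other pathway gene and 61 of all features passed in WAT. With 16 arrays as separate samples 1 other pathway gene and 278 of all features passed in WAT. Aloxe3 between depots of knockouts was at 0.13 there and with slide as a block. Fitting only the groups compared left 14 of the 23 other pathway genes between depots of knockouts. Without WAT controls 1 and 4, 4 genes and 5272 of all features passed between depots of controls, and Aloxe3 was at 0.10. Without BAT GR knockouts 1 and 2, Alox15 in BAT was at -0.18.

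Leaving out 1 sample at a time gave 3 to 7 genes lower without overlap in WAT and 0 to 26 other pathway genes in WAT. The number of all features that passed in WAT then ranged from 7 to 9235. The differences ranged from -0.072 to 0.22 for Alox15, -0.27 to 0.13 for Aloxe3 and -0.19 to 0.16 for Ptges in BAT. Between depots Aloxe3 ranged from -0.18 to 0.20 in controls and -0.37 to 0.16 in knockouts, where Alox5 ranged from -0.91 to 0.27 and Ptges from -1.31 to 0.45.

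Same-numbered samples of the 2 genotypes correlated at -0.47 to 0.08 in WAT and -0.04 to 0.18 in BAT, and those of the 2 depots at 0.05 to 0.18 in controls and -0.26 to 0.09 in knockouts; a correlation over 0.1 in every pair was required, so the numbers were not taken as pairs. With a replicate block over 16 arrays, 6 of 7 genes passed between depots of controls (Ltc4s at adjusted p = 0.0570 in limma), 4 between depots of knockouts and 0 in BAT, and Aloxe3 between depots of knockouts was at 0.13. Of all features 7876, 9235 and 0 passed in these comparisons.

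Ptgs2 was limited by its signal over background, and 3 samples limit WAT GR knockouts.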
